A study of Mus musculus with 11 samples.

Results

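The genes described here were 42 listed cell cycle and proliferation genes, chosen by name, of which 36 were among the 13734 genes of the deposited table. They fall into 3 classes. The S phase class, which covers the replicative helicase, the sliding clamp and nucleotide supply, had all of its 10 genes in the table. The mitotic class, which covers the G2 and M phase kinases, cyclins, spindle and cytokinesis genes, had 19 of 25, and the G1 class, which covers the D-type cyclins, their kinases and one inhibitor, had 7 of 7. The 6 genes with no row, Ccnb1, Birc5, Aurka, Aurkb, Plk1 and Hmmr, were all mitotic and are not analysed here.

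RNA from isolated kidney glomeruli was measured in 11 mouse libraries. Male db/db mice, which lack the long form of the leptin receptor and become obese and diabetic, received puerarin, an isoflavone glycoside of kudzu root, by gavage at 20 mg/kg per day in 5% DMSO (n = 3) or 5% DMSO alone (vehicle, n = 4). Their db/m littermates, heterozygous at that locus, received the same vehicle (n = 4). All treatments ran for 6 weeks from 10 weeks of age. The labels describe the BKS background in one field and C57BL/6J in another, and they do not say whether a library is 1 animal or a pool, so that p-values cover only the variation among the libraries as deposited, some of which may be technical.

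Counts were scaled to library size as CPM (reads per 1000000, with TMM factors from edgeR), from totals of 35369703 to 44244460 per library. Titles of 5 libraries carry an S number and those of the other 6 a group tag, with both forms in every group, and this title form was a term in the fits below. The labels do not say what the forms stand for. All 10 podocyte markers on the list were in the table, and their summed level ran from 12049 to 17669 CPM, so that the defining cell type of the labelled tissue was present. Markers of other nephron segments were there too, with summed levels of 626.1 to 5698 CPM for proximal tubule and 1582 to 12145 CPM for distal tubule and collecting duct. In db/db puerarin 2 and 3, Xist was at 528 and 819 CPM and in the other 9 libraries at 6.47 CPM or lower, against the label of male mice. Both Xist-high libraries are in the puerarin group. The Y-linked genes Ddx3y, Eif2s3y, Kdm5d and Uty fell as low as 0.909, 0.883, 1.77 and 3.06 CPM in the group-tag puerarin libraries. In every vehicle library of either genotype they were at 50.3, 26.3, 16.3 and 32.2 CPM or higher.

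As background, a dividing cell commits to the cycle in G1, when D-type cyclins with CDK4 or CDK6 inactivate the retinoblastoma proteins and so release the E2F factors, which switch on the genes of DNA synthesis. A later wave of genes for mitosis is held off in resting cells by the DREAM complex and is switched on by MYB and FOXM1. These late genes are typically bound at a short promoter element, the cell cycle genes homology region (CHR), with CCAAT boxes nearby that bind NF-Y. In the adult glomerulus podocytes are post-mitotic, and mesangial, endothelial and infiltrating immune cells are the populations known to divide. In bulk RNA, fewer dividing cells and less RNA of a gene in each cell cannot be told apart.

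Sequences of 4 promoters are shown because they carry these elements in the genes on which the results turn. They come from RefSeq (GRCm38.p6, the same primary assembly as the mm10 build of the files), run 5′ to 3′ on the gene's strand from 250 bases before the transcription start to 50 bases from it, and have matches in capitals. Capitals mark 3 elements, each searched on both strands. The CHR was searched with the letters TTTGAA, the canonical form, and with the variant form TTCGAA. Boxes of the CCAAT type have the letters of their name and are read in reverse complement (ATTGG) where they lie on the opposite strand. For E2F the words searched were TTTCCCGC, TTTGGCGC, TTTCGCGC and TTTGGCGG. The first 3 are the mitotic genes with the smallest p between the genotypes on vehicle. They are Cdk1 (the M phase kinase, chr10:69352863-69353162, minus strand), Cdc20 (the activator of the anaphase-promoting complex, chr4:118437294-118437593, minus strand) and Mki67 (the Ki-67 protein of the mitotic chromosome surface, chr7:135716330-135716629, minus strand). The fourth is the S phase gene Pcna (the sliding clamp of DNA polymerase, chr2:132253131-132253430, minus strand), the member that differed by title form.
Cdk1: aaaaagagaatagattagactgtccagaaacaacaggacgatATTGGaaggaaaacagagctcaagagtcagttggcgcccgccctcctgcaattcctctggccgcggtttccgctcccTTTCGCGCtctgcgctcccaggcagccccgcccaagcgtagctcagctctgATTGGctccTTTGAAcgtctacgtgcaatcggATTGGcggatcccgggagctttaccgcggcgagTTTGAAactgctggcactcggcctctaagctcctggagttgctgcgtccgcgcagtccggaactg
Cdc20: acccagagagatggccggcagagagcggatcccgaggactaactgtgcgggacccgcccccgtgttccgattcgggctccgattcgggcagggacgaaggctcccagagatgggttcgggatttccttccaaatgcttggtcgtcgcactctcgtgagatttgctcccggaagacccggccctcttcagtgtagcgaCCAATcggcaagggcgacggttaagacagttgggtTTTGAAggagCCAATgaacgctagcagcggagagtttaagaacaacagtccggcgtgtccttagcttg
Mki67: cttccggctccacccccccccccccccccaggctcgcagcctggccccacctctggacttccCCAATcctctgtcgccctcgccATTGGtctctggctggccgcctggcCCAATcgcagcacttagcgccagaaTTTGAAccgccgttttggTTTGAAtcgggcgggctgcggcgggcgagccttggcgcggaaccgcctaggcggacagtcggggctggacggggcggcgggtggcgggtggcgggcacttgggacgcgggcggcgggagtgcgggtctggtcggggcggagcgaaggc
Pcna: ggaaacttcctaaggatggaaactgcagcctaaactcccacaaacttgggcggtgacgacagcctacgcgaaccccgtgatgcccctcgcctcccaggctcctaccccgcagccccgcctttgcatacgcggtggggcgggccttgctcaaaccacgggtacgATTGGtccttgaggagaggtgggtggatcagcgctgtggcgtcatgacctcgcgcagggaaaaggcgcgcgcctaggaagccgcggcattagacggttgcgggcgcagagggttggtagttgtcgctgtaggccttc

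The Cdk1 window held a CHR 71 bases and another 15 bases before the start, with a CCAAT box ahead of each and an E2F element further upstream. In the Cdc20 window a single CHR lay 18 bases before the start between CCAAT boxes, and in Mki67 a pair of CHR matches lay at 116 and 98 bases before it. The Pcna window held a CCAAT box and neither other element.

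Promoter windows were found for 31 of the 36 genes, all but Ccna2, Ccnd1, Ccnd2, Mcm4 and Tpx2, and for 10868 of the genes in the table. A CHR was in 15 of 17 mitotic windows (88.2%), in 2 of 9 S phase windows (Mcm2 and Mcm7) and in 0 of 5 G1 windows, against 13.4% of all windows. CCAAT boxes were in 15 of 17 mitotic and 8 of 9 S phase windows, against 38% of all. An E2F element was in 4 of 9 S phase windows, those of Mcm3, Mcm5, Mcm6 and Mcm7, in 1 mitotic window (Cdk1) and in 1 G1 window (Cdk2), against 4.11% of all. Both a CHR and a CCAAT box were in 14 of 17 mitotic windows, against 5.5% of all. Nusap1 and Cenpe were the mitotic genes without a CHR in the window. Short letter matches describe the sequence and do not show a bound site.

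**Figure D1:**
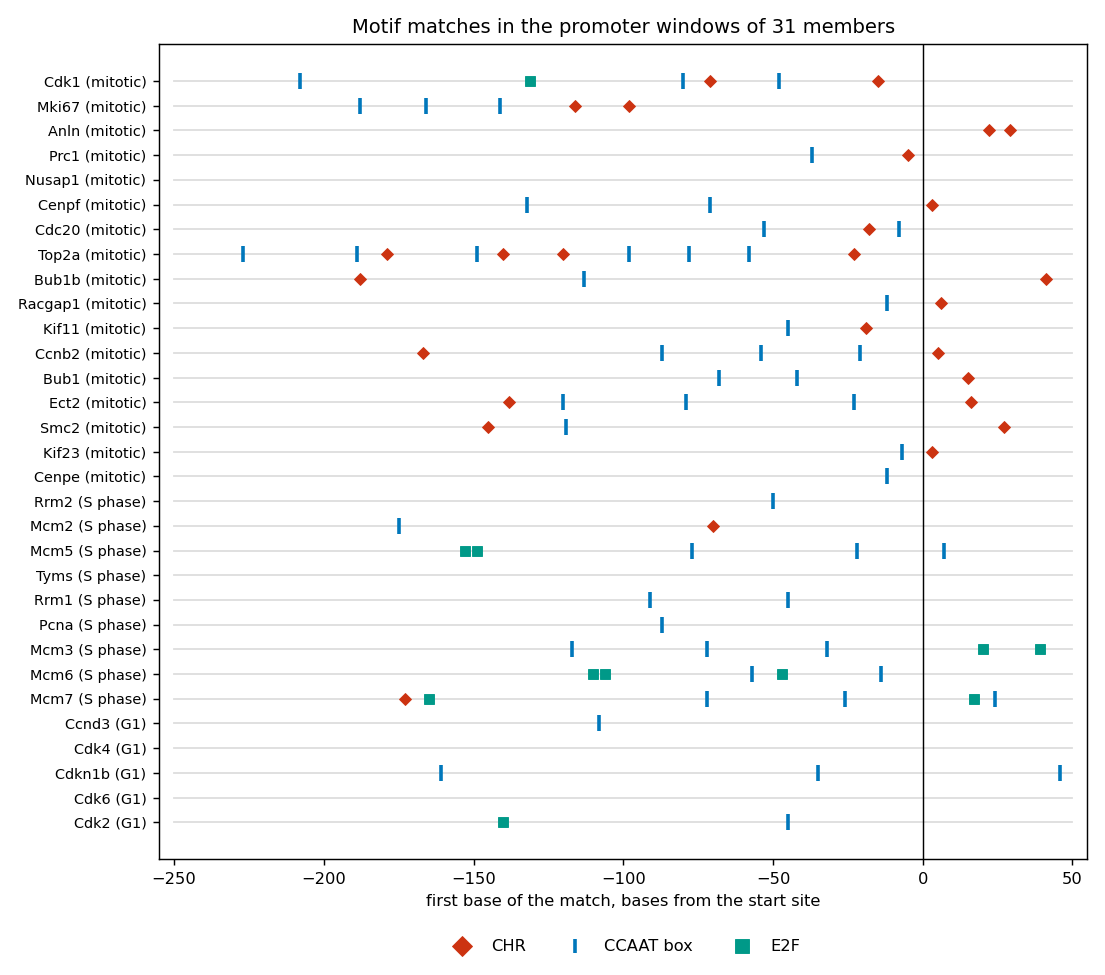
First base of each CHR, CCAAT box and E2F match (x axis, bases from the transcription start) in the promoter windows of 31 genes (rows, grouped by class). CHR matches sit in 15 of the 17 mitotic rows and in 2 of the 9 S phase rows, and E2F matches in 4 S phase rows.

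The 3 classes differed in abundance. On a per-length scale (RPKM, reads per kilobase of the most abundant transcript per 1000000, mean of 11 libraries), the highest levels were those of Ccnd1 (55.5), Pcna (51.2), Ccnd3 (48.01), Cdk4 (33.9) and Cdkn1b (22.8). S phase genes other than Pcna were between 1.52 (Rrm2) and 5.96 (Mcm7). Mitotic genes were lower, from 0.229 (Cenpf) to 4.03 (Kif23), and 13 of the 19 were below 1. Transcripts in the deposited table had nearly all reached 100 reads in some library. In 7 mitotic genes (Anln, Ccna2, Ccnb2, Cdk1, Cenpf, Nusap1 and Prc1) that level was reached only in db/db libraries, in 0 of the db/m libraries. Among the libraries used here these 7 owe their place in the table to db/db, and a higher db/db value was favoured by that floor. Counts between the genotypes are therefore given over the other 29 of the 36 genes (12 mitotic, 10 S phase and 7 G1), with these 7 beside them, and the 6 genes with no row enter no count. Reads of 12 of the 36 genes were summed over more than 1 transcript and may count shared reads more than once, since the step that assigned reads is not given.

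Of the 3 classes, mitotic genes had the largest differences between db/db and db/m glomeruli on vehicle, without any gene of the 36 passing the test. The fitted log2 fold change was positive for 10 of the 12 mitotic genes that also reached 100 reads in db/m, with a median of 0.51, for 9 of 10 S phase genes, with a median of 0.10, and for 5 of 7 G1 genes, with a median of 0.04. Over all 13734 genes, 53.5% were positive and the median was 0.02. The 7 mitotic genes that reached 100 reads in db/db alone had a median of 0.88, and all 19 together one of 0.69. With edgeR's quasi-likelihood test, 0 of the 36 had an adjusted p (Benjamini-Hochberg over all genes) under 0.05, where the rate over all genes was 0.0437%. At an unadjusted p under 0.05, 11 of the 29 genes were higher in db/db (7 mitotic, 2 S phase and 2 G1) and 0 lower, against 5.5% of all genes higher. Of the 7 other genes 5 were higher, as the floor favoured. DESeq2, fitted to the same counts, called 4 of the 36 higher, Mki67, Cdk1, Cdc20 and Nusap1, among 290 of the 13734 genes called in either direction. Cdk1 and Nusap1 are among the 7 genes that the floor favoured. Leaving out db/db vehicle 1 brought the median of all 19 mitotic genes from 0.69 to 0.33.

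Values by library follow in a fixed order, S184, S185, 2 and 3 for db/m vehicle, S152, S153, 1 and 3 for db/db vehicle, and S144, 2 and 3 for db/db puerarin. Cdk1 was at 0.812, 0.836, 0.247 and 0.970 CPM in db/m vehicle, at 4.06, 1.17, 3.38 and 1.82 CPM in db/db vehicle and at 3.49, 2.89 and 2.78 CPM in db/db puerarin. Cdk1 is one of the 7 genes named above. All 4 db/db vehicle libraries lay above all 4 db/m libraries, and S152 and 1 were the higher pair. The log2 fold change was 1.87 (SE 0.45, edgeR adjusted p = 0.182), the largest of the 36 genes, and was 1.38 within S-number libraries and 2.27 within group-tag libraries.

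Mki67 was at 3.38, 3.55, 2.89 and 2.56 CPM in db/m vehicle, at 10.5, 4.61, 10.6 and 3.78 CPM in db/db vehicle and at 9.63, 5.78 and 5.11 CPM in db/db puerarin. Again S152 and 1 stood highest, and the db/db vehicle values did not overlap those of db/m (log2 fold change 1.27, SE 0.34, edgeR adjusted p = 0.214). Cdc20 was at 1.95, 2.46, 1.98 and 2.24 CPM in db/m vehicle, at 3.98, 3.60, 4.001 and 2.55 CPM in db/db vehicle and at 3.95, 2.92 and 3.27 CPM in db/db puerarin. The groups on vehicle did not overlap (log2 fold change 0.71, SE 0.18, edgeR adjusted p = 0.188). Unlike Cdk1 and Mki67, Cdc20 was high in S153 as well, and db/db vehicle 3 alone lay close to db/m.

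**Figure D2:**
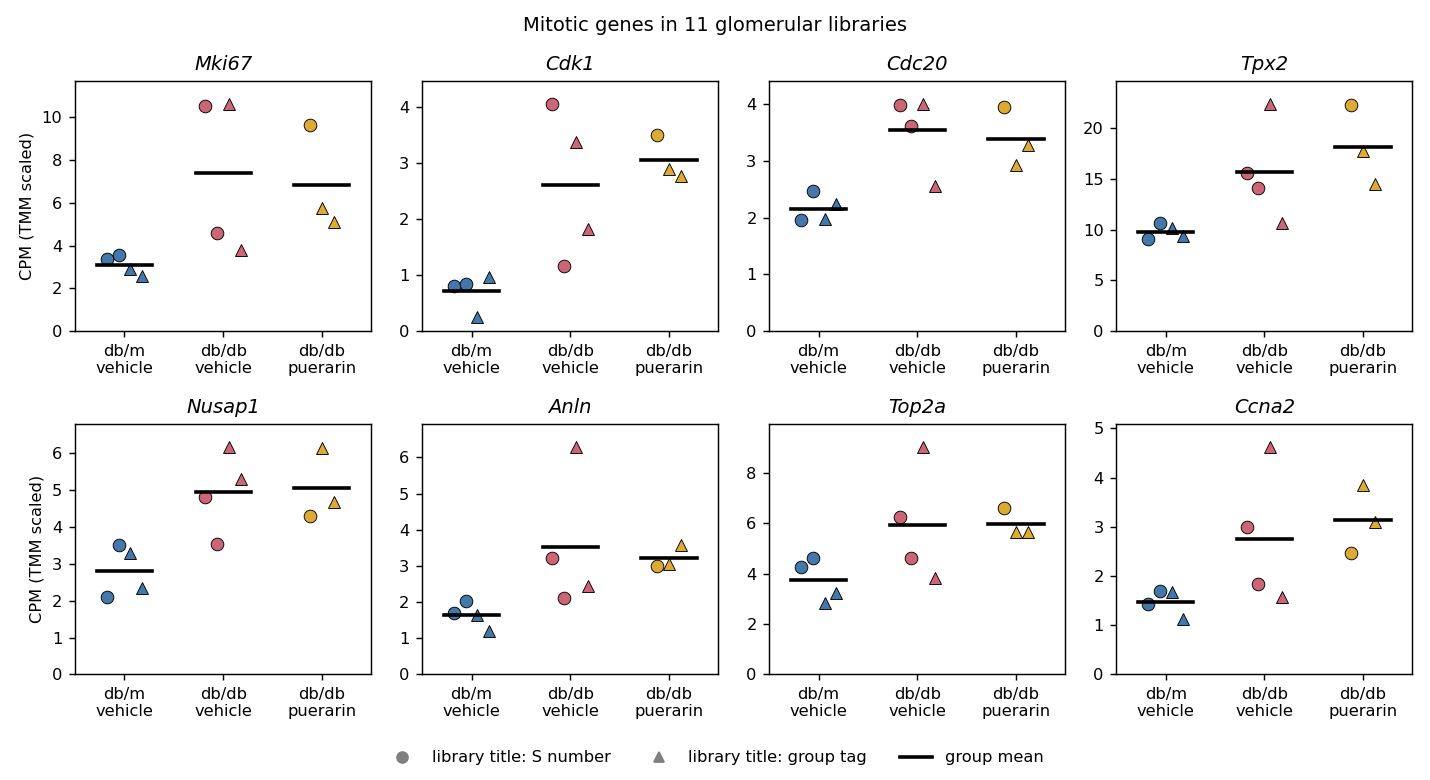
CPM of 8 mitotic genes (y axis, from 0) in each library, by group (x axis), with circles for S-number titles, triangles for group-tag titles and bars for group means. In db/db vehicle, 1 circle (S152) and 1 triangle (library 1) sit at the top for Mki67 and Cdk1, and the other pair sits closer to the db/m values.

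Top2a was at 4.27, 4.61, 2.82 and 3.23 CPM in db/m vehicle, at 6.25, 4.61, 9.02 and 3.83 CPM in db/db vehicle and at 6.59, 5.64 and 5.66 CPM in db/db puerarin. Top2a, which untangles DNA before and during mitosis, overlapped between the groups on vehicle because db/db vehicle 3 lay within the db/m range (log2 fold change 0.69, SE 0.27, edgeR adjusted p = 0.402). Bub1b was at 3.63, 3.01, 3.11 and 3.11 CPM in db/m vehicle, at 5.62, 4.77, 6.76 and 3.53 CPM in db/db vehicle and at 5.31, 4.19 and 3.87 CPM in db/db puerarin. For this spindle checkpoint kinase db/db vehicle 3 lay just under db/m S184 and the other 3 above all of db/m (log2 fold change 0.69, SE 0.20, edgeR adjusted p = 0.252). Tpx2 was at 9.04, 10.7, 10.1 and 9.43 CPM in db/m vehicle, at 15.6, 14.1, 22.4 and 10.7 CPM in db/db vehicle and at 22.3, 17.8 and 14.5 CPM in db/db puerarin. Tpx2, a spindle assembly factor that activates Aurora A, had groups on vehicle that touched without overlapping, with db/db vehicle 3 and db/m S185 side by side (log2 fold change 0.68, SE 0.21, edgeR adjusted p = 0.295).

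The remaining mitotic genes with groups on vehicle that did not overlap were Anln, a scaffold of the cytokinetic ring, from 1.19 to 2.03 CPM in db/m and from 2.13 to 6.29 CPM in db/db, and Nusap1, a spindle microtubule protein, from 2.11 to 3.50 and from 3.53 to 6.16 CPM. Both belong to the 7 genes that reached 100 reads in db/db alone. Prc1, which bundles the midzone microtubules, ran from 4.68 to 6.30 CPM in db/m and from 5.33 to 17.2 CPM in db/db vehicle. Ccna2, the cyclin of S phase and G2, ran from 1.12 to 1.69 and from 1.58 to 4.62 CPM.

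Other mitotic genes overlapped between the genotypes. Bub1 was at 5.59, 3.93, 4.74 and 4.95 CPM in db/m vehicle, at 4.70, 5.34, 7.88 and 6.79 CPM in db/db vehicle and at 4.16, 5.84 and 7.74 CPM in db/db puerarin. Bub1, the partner kinase of Bub1b, was highest in db/db vehicle 1 (log2 fold change 0.33, SE 0.18). Smc2 was at 16.9, 25.2, 22.3 and 13.8 CPM in db/m vehicle, at 26.96, 19.1, 21.3 and 16.3 CPM in db/db vehicle and at 29.6, 15.3 and 18.3 CPM in db/db puerarin. Smc2, a condensin subunit, varied as much within as between groups (log2 fold change 0.09, SE 0.21). Kif23, the cytokinesis kinesin, had a log2 fold change of -0.05 (SE 0.11), Cenpe, the kinetochore kinesin, one of -0.08 (SE 0.12), and Ect2, the RhoA exchange factor of cytokinesis, one of 0.28 (SE 0.18). Its partner Racgap1 was at 0.52 (SE 0.23), the spindle kinesin Kif11 at 0.50 (SE 0.22), Ccnb2, a mitotic cyclin, at 0.49 (SE 0.27), and Cenpf, a kinetochore protein of G2 and M phase, at 0.72 (SE 0.38), all with edgeR adjusted p above the threshold.

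In the S phase class differences were smaller. Mcm2 was at 14.9, 15.6, 12.4 and 14.8 CPM in db/m vehicle, at 19.4, 20.6, 18.6 and 15.7 CPM in db/db vehicle and at 16.7, 19.01 and 13.6 CPM in db/db puerarin. Mcm2, a subunit of the MCM helicase, was the only S phase gene whose groups on vehicle did not overlap (log2 fold change 0.36, SE 0.12, edgeR adjusted p = 0.336). Rrm2 was at 2.49, 1.54, 3.16 and 3.33 CPM in db/m vehicle, at 4.37, 2.93, 4.60 and 3.89 CPM in db/db vehicle and at 2.67, 3.94 and 3.61 CPM in db/db puerarin. Rrm2, the regulated subunit of ribonucleotide reductase, overlapped through S153 (log2 fold change 0.62, SE 0.20, edgeR adjusted p = 0.317). Tyms was at 22.1, 18.03, 26.1 and 27.2 CPM in db/m vehicle, at 25.3, 26.03, 22.8 and 33.7 CPM in db/db vehicle and at 22.1, 34.3 and 35.3 CPM in db/db puerarin. For Tyms, thymidylate synthase, the highest values were those of db/db vehicle 3 and puerarin 2 and 3, which share the group-tag title (log2 fold change on vehicle 0.22, SE 0.14).

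Of the other MCM subunits, Mcm5 had a log2 fold change of 0.35 (SE 0.24) on vehicle, and Mcm3, Mcm4, Mcm6 and Mcm7 lay between -0.02 and 0.09. Rrm1, the large subunit of ribonucleotide reductase, was at 0.11 (SE 0.09) and Pcna at 0.05 (SE 0.08).

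G1 genes included the most abundant of the 36. Ccnd1 was at 185.3, 216, 169.8 and 183 CPM in db/m vehicle, at 232, 213, 269.8 and 227 CPM in db/db vehicle and at 212, 204 and 205 CPM in db/db puerarin. All db/db vehicle libraries except S153 lay above all db/m libraries for Ccnd1, cyclin D1 (log2 fold change 0.32, SE 0.10, edgeR adjusted p = 0.276). Ccnd3 was at 225, 249.8, 235 and 258 CPM in db/m vehicle, at 279, 291, 310.3 and 260.4 CPM in db/db vehicle and at 316, 257 and 290.0 CPM in db/db puerarin. Ccnd3, cyclin D3, did not overlap between the groups on vehicle, though db/db vehicle 3 and db/m vehicle 3 lay side by side (log2 fold change 0.24, SE 0.09, edgeR adjusted p = 0.400). Cdkn1b was at 54.3, 55.6, 52.5 and 54.2 CPM in db/m vehicle, at 57.7, 58.2, 55.5 and 51.2 CPM in db/db vehicle and at 60.04, 46.4 and 57.3 CPM in db/db puerarin. Cdkn1b, the CDK inhibitor p27, had the narrowest spread of the 36 in db/m on the log2 scale, at 54.1 ± 1.27 CPM (SD, n = 4), and was at 55.7 ± 3.20 CPM (SD, n = 4) in db/db on vehicle. Its log2 fold change was 0.04 (SE 0.08). Cdk2, the kinase of the G1 to S transition, was at -0.05 (SE 0.14).

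Vehicle groups did not overlap for 5 of the 29 genes that also reached 100 reads in db/m, with db/db the higher in each: Mcm2, Mki67, Cdc20, Tpx2 and Ccnd3. The same held for 3 of the 7 other genes, Cdk1, Anln and Nusap1. Over all genes the share with db/db entirely above db/m was 2.48%. Within the S-number libraries (2 against 2) 10 of the 12 mitotic genes were higher in db/db, with a median difference in log2 CPM of 0.31, and within the group-tag libraries (2 against 2) also 10 of 12, with a median of 0.60. A test of the difference between these effects had 0 of the 36 genes under an adjusted p of 0.05 and 0 under an unadjusted p of 0.05 (edgeR interaction contrast), where the rates over all genes were 0.0218% and 3.33%.

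**Figure D3:**
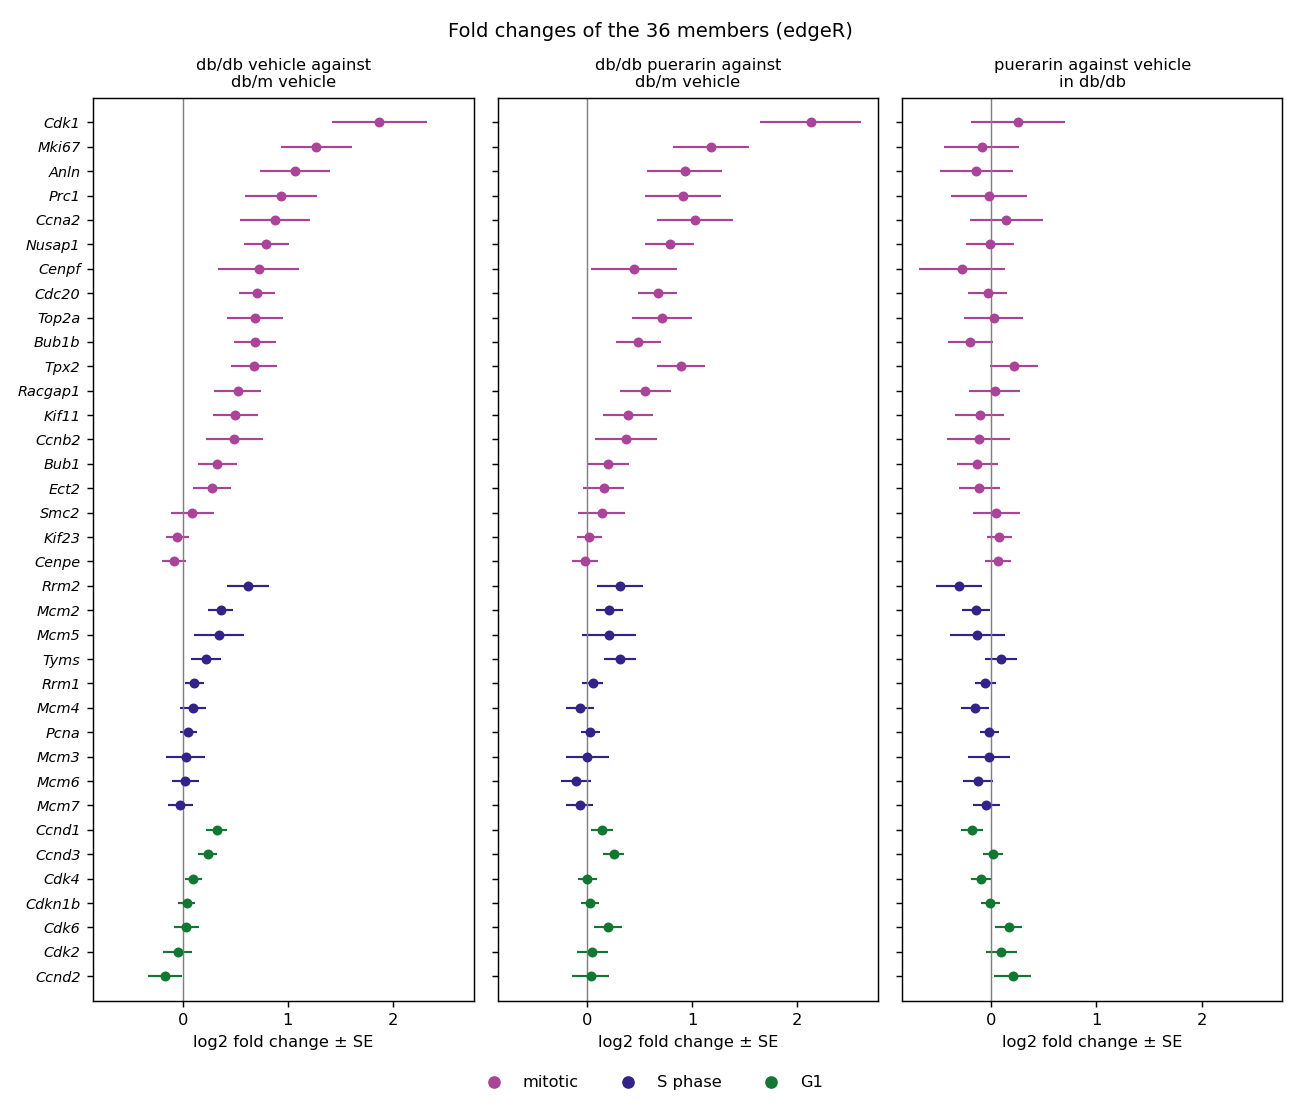
Fitted log2 fold change (x axis, points) with its SE (bars) for the 36 genes (rows) in 3 comparisons. In both comparisons with db/m, Cdk1 and Mki67 lie farthest to the right, while in puerarin against vehicle every point lies between -0.31 and 0.25.

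Single libraries set much of the spread. The level of a class in a library, taken as the mean over its genes of log2 CPM minus the gene's mean over 11 libraries, was for the 12 mitotic genes 0.50 in db/db vehicle 1 and 0.32 in S152, and -0.01 and -0.17 in S153 and 3. The db/m libraries lay from -0.41 to -0.13, and db/m S185 (-0.13) was above db/db vehicle 3, so that the groups overlapped. Db/db vehicle 1 held the highest value of 9 of the 12 mitotic genes, of 3 of 10 S phase genes and of 2 of 7 G1 genes. S phase levels ran from -0.19 to 0.25 in db/db vehicle and from -0.23 to -0.02 in db/m, and G1 levels from -0.12 to 0.15 and from -0.11 to 0.07, so that these classes overlapped too.

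Myeloid markers were highest in the same library, db/db vehicle 1. Of the 14 symbols on the list, 13 were in the table and none of those at 0. The other, Emr1, is an older symbol of Adgre1, which is among the 13. The level of these markers was 2.60 in db/db vehicle 1, 0.67 in 3, -0.14 in S152 and -0.24 in S153, and their summed level was 1368 CPM in db/db vehicle 1, from 247.3 to 368.3 CPM in the other db/db vehicle libraries, from 213.6 to 352.5 CPM in puerarin and from 151.5 to 363.4 CPM in db/m. The mitotic level was next highest in puerarin S144 and S152 (0.38 and 0.32), where the myeloid level was -0.34 and -0.14. Db/db vehicle 3 paired the second highest myeloid level with a mitotic level of -0.17. Other marker lists also differed in direction between the genotypes on vehicle, with 0 genes past the edgeR test in each. Podocyte markers were lower in db/db for 9 of 10 genes (median -0.24, 4 at an unadjusted p under 0.05), with summed levels of 12049 to 15691 CPM in db/db vehicle and 14192 to 17669 CPM in db/m. Neutrophil markers, 3 of 7 in the table, were higher for 3 of 3 (median 1.12, 2 at an unadjusted p under 0.05), at 8.29 to 31.06 against 4.42 to 12.3 CPM, with the highest level in db/db vehicle 1. The part of these cell types in the difference on vehicle was not tested.

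**Figure D4:**
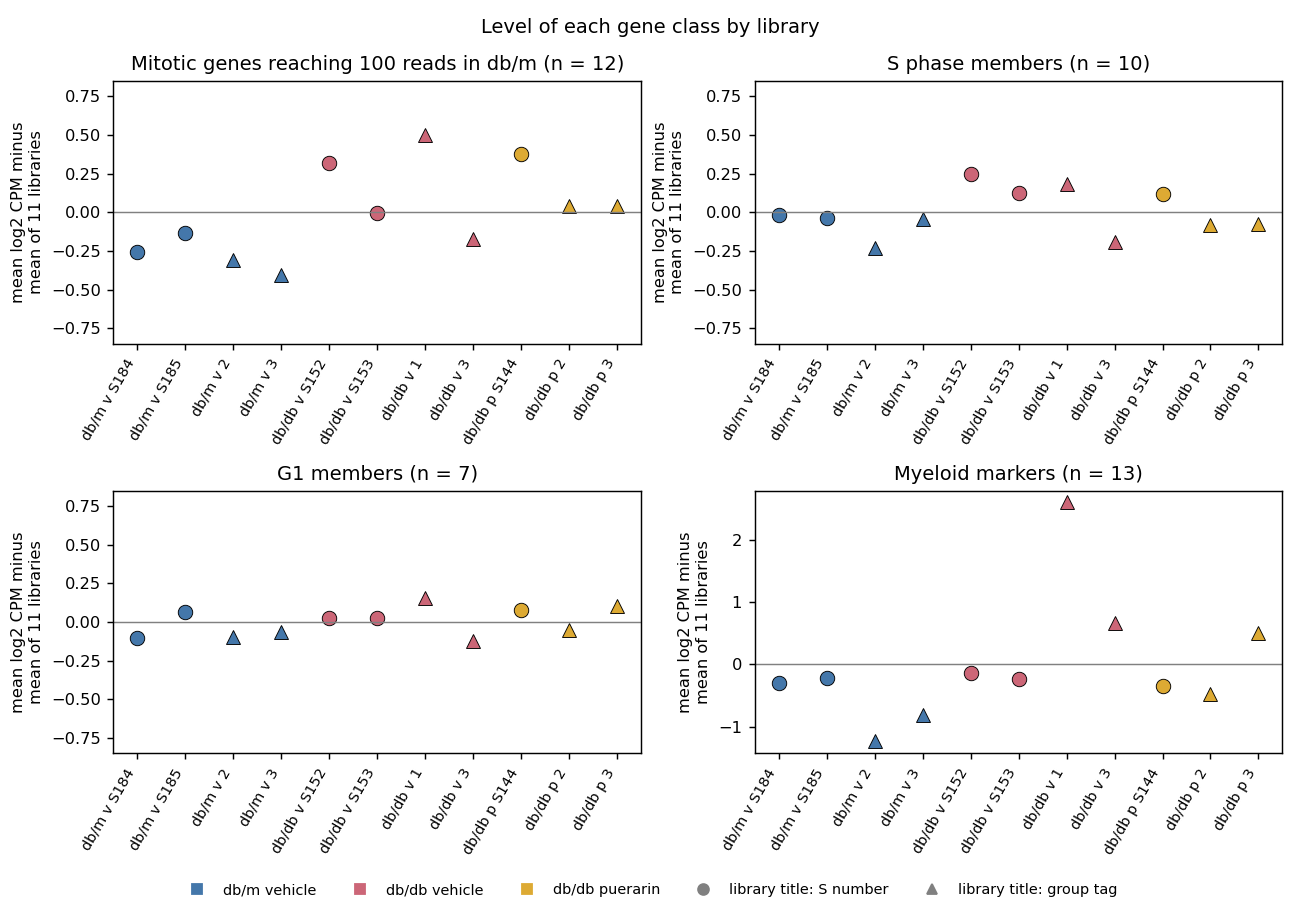
Mean log2 CPM of each class relative to the mean of 11 libraries (y axis) in each library (x axis, v for vehicle and p for puerarin), with colours for groups and shapes for title forms; the myeloid panel has its own scale. The mitotic panel holds the 12 genes that reached 100 reads in db/m, where db/db vehicle 3 lies among the db/m libraries, and db/db vehicle 1 is the highest in the mitotic and myeloid panels.

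Puerarin-treated and vehicle-treated db/db glomeruli showed no called difference in these genes. With edgeR 0 of the 36 passed, 0 had an unadjusted p under 0.05, and DESeq2 called 0. Over all genes edgeR called 0 (0%), 578 had an unadjusted p under 0.05 and DESeq2 called 15. The median log2 fold change, puerarin against vehicle, was -0.02 for the mitotic class, -0.09 for S phase and 0.02 for G1, where the median of all genes was -0.02. S phase genes were negative in 9 of 10 cases, all but Tyms, between -0.31 (Rrm2) and 0.09. Of all 13734 genes, 7589 were negative. Standard errors ran from 0.09 to 0.45 (Cdk1), and the absence of a call does not show that the levels were equal.

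Ccnd1 had the smallest p of the 36 (log2 fold change -0.18, SE 0.11, edgeR adjusted p = 0.967), and all 3 puerarin libraries lay below all 4 db/db vehicle libraries, at 207 ± 4.48 (SD, n = 3) against 236 ± 24.1 CPM (SD, n = 4). Cdk4 was at 45.3, 47.7, 38.4 and 47.1 CPM in db/m vehicle, at 48.6, 50.3, 45.8 and 46.7 CPM in db/db vehicle and at 42.4, 44.7 and 45.8 CPM in db/db puerarin. Cdk4, the kinase partner of D-type cyclins, was the other gene with puerarin entirely below vehicle (log2 fold change -0.10, SE 0.09). The share of all genes with puerarin entirely below vehicle was 1.72%, and with puerarin entirely above it 1.51%, which 0 of the 36 showed. Cdk6 had a log2 fold change of 0.16 (SE 0.13), Ccnd2 0.20 (SE 0.18), Mcm4 -0.16 (SE 0.13), Bub1b -0.20 (SE 0.21) and Tpx2 0.22 (SE 0.23).

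The title forms gave opposite directions for the mitotic class under puerarin. In S-number libraries (1 puerarin against 2 vehicle) 11 of the 12 genes were higher with puerarin, with a median difference in log2 CPM of 0.23, and in group-tag libraries (2 against 2) 3 of 12 were, with a median of -0.09. The difference between these directions was not tested. The mitotic levels behind it were 0.38 in puerarin S144 beside 0.32 and -0.01 in vehicle S152 and S153, and 0.04 in both puerarin 2 and 3 beside 0.50 and -0.17 in vehicle 1 and 3. Among db/db libraries of both arms, puerarin values of the mitotic level thus lay between the vehicle extremes. Puerarin 2 and 3 are also the libraries with high Xist, so that in the group-tag libraries drug and Xist level cannot be told apart.

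Puerarin-treated db/db glomeruli against db/m on vehicle share the db/m libraries with the first comparison. None of the 36 genes passed here either, with 0 called by edgeR. At an unadjusted p under 0.05, 7 of the 29 genes were higher (6 mitotic and Ccnd3) and 0 lower, beside 5 of the 7 that reached 100 reads in db/db alone, and 2 of the 36 were called by DESeq2, Cdk1 and Tpx2. The rates over all genes were 0.182% called by edgeR and 5.37% higher at an unadjusted p under 0.05. DESeq2 called 297 of the 13734 genes, and its call of Cdk1 is for one of the 7 genes favoured by the floor. Mitotic genes that also reached 100 reads in db/m were positive in 11 of 12 cases, with a median of 0.44. Over all genes 47.7% were positive, with a median of -0.01. S phase and G1 medians were 0.04 and 0.05. Cdk1 was at a log2 fold change of 2.13 (SE 0.48; adjusted p = 0.130 with edgeR), Tpx2 0.90 (SE 0.23, edgeR adjusted p = 0.182), and Cdc20 0.67 (SE 0.19, edgeR adjusted p = 0.238). Without db/db vehicle 1, which enters this comparison only through the shared estimates of spread and title form, Tpx2 passed (0.93, edgeR adjusted p = 0.0311). In that setting 74 of the 13734 genes passed.

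Puerarin lay entirely above db/m for 6 of the 29 genes, all mitotic: Mki67, Top2a, Cdc20, Bub1b, Tpx2 and Racgap1. The share of all genes with such a separation was 3.73%. It did so too for 5 of the 7 other genes, Cdk1, Ccna2, Prc1, Anln and Nusap1. For Top2a and Ccna2, whose db/db vehicle libraries reached into the db/m range, the puerarin values were closer together, at 5.96 ± 0.546 and 3.13 ± 0.698 CPM (SD, n = 3).

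In the edgeR fit of all 11 libraries, title form was the only term under which one of the 36 genes passed. Pcna was lower in group-tag than in S-number libraries (log2 fold change -0.29, SE 0.07, edgeR adjusted p = 0.0376), at 58.6 ± 4.54 (SD, n = 6) against 71.8 ± 2.77 CPM (SD, n = 5). Pcna was at 68.02, 75.8, 58.7 and 53.7 CPM in db/m vehicle, at 71.3, 71.7, 66.5 and 55.2 CPM in db/db vehicle and at 72.01, 60.1 and 57.4 CPM in db/db puerarin. Every S-number value lay above every group-tag value, in all 3 groups. The rate of genes called for title form was 6.97%, and 1 of 36 is a share below it. The call was lost when any 1 of 9 of the 11 libraries was left out, all but db/m S184 and db/db vehicle 1, and with library totals in place of TMM, with adjusted p from 0.00463 to 0.173 over 18 other settings. Without db/db vehicle 1, 7 of the 36 passed, among 1791 of all 13734 genes: Mcm3, Mcm4, Mcm5, Mcm6, Pcna, Tyms and Ccnd2. Without db/m S184, 3 of the 36 passed, among 1492 of all 13734 genes: Pcna, Bub1 and Ccnd2.

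The S phase class had a median log2 fold change of -0.28 for group tag against S number, with 8 of 10 genes negative, where the median over all genes was -0.02. At an unadjusted p under 0.05, 6 S phase genes were lower (Mcm4, Mcm5, Mcm6, Mcm7, Pcna and Rrm1) and 2 higher (Rrm2 and Tyms), against 11.2% and 14.2% of all genes. Mcm4 was at 15.2, 16.99, 12.003 and 14.3 CPM in db/m vehicle, at 16.1, 18.1, 16.4 and 11.9 CPM in db/db vehicle and at 16.8, 11.3 and 12.5 CPM in db/db puerarin. Mcm4 was at a log2 fold change of -0.34 (SE 0.11; adjusted p = 0.0823 with edgeR), with db/db vehicle 1 the only group-tag library inside the S-number range. Tyms was at 0.37 (SE 0.12) and Rrm2 at 0.46 (SE 0.17), opposite in sign to the MCM genes.

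Within G1, the D-type partners went different ways by title form. Ccnd2 was at 56.3, 76.96, 48.4 and 47.2 CPM in db/m vehicle, at 59.04, 55.7, 54.9 and 32.8 CPM in db/db vehicle and at 70.4, 41.2 and 55.4 CPM in db/db puerarin. Ccnd2, cyclin D2, was at -0.46 (SE 0.14, edgeR adjusted p = 0.0785). Cdk6 was at 12.4, 14.5, 17.02 and 14.1 CPM in db/m vehicle, at 13.9, 12.9, 16.1 and 16.7 CPM in db/db vehicle and at 12.3, 19.9 and 20.8 CPM in db/db puerarin. Cdk6, a kinase partner of D-type cyclins, was at 0.36 (SE 0.11, edgeR adjusted p = 0.0662). Among mitotic genes, Smc2 was at -0.40 (SE 0.18) and Bub1 at 0.39 (SE 0.16), and the class median was -0.10. Distal tubule and collecting duct markers were higher in group-tag libraries for 10 of 10 genes, 6 of them past the test, with a median of 1.29 and none at 0. Their summed level was 1582 to 5933 CPM in S-number and 6341 to 12145 CPM in group-tag libraries, beside which other lists differed by title form. Endothelial markers were lower in group-tag libraries for 10 of 10 genes (median -0.31, 5 at an unadjusted p under 0.05, 0 past the test), with summed levels of 5976 to 7750 CPM in S-number and 3709 to 6499 CPM in group-tag libraries. Of 10 mesangial and mural markers 4 passed the test as higher, Acta2, Tagln, Myh11 and Rgs5, with a list median of 0.14 and summed levels of 1290 to 1661 and 1352 to 2310 CPM, and of 5 erythroid markers 2 passed as lower. The part of these cell types in the differences by title form was not tested.

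**Figure D5:**
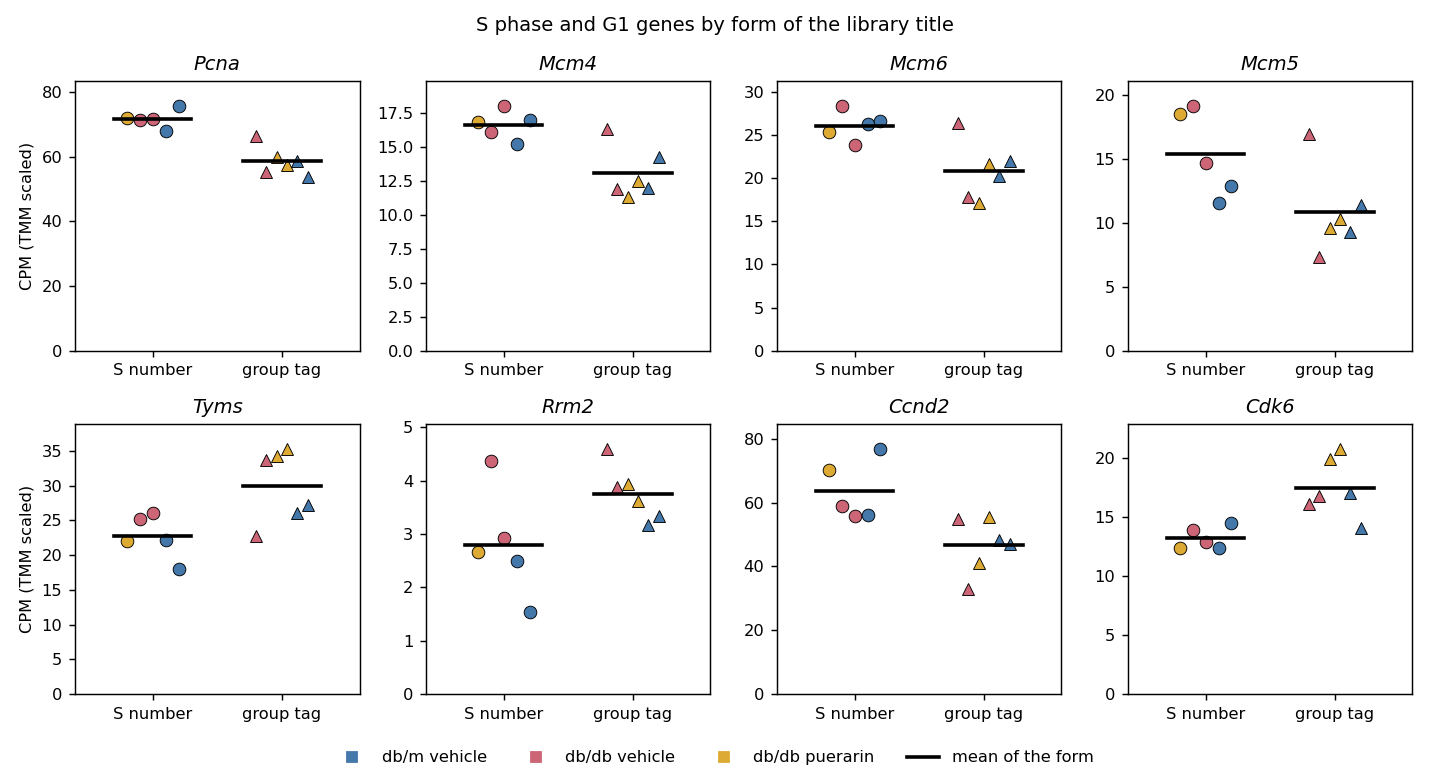
CPM (y axis, from 0) of 6 S phase and G1 genes with values above and of Mcm5 and Mcm6, by form of the library title (x axis), with colours for groups and bars for the mean of each form. For Pcna the S-number values, 68.0 to 75.8 CPM, all lie above the group-tag values, 53.7 to 66.5 CPM.

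Cell cycle genes outside the 36 were taken from 5 lists with 99 genes in the table. None passed in the 3 group comparisons (edgeR), and 3 of the 99 passed for title form, where the rate over all genes was 6.97%. On vehicle, 20 of 27 further spindle and kinetochore genes were positive, with a median of 0.27. At an unadjusted p under 0.05, 9 of the 27 were higher, against 5.5% of all genes. These 5 lists were not split by the floor, which could favour a higher db/db value in some of their genes. Ncaph, Ckap2, Ckap2l and Kif22 were at most 1.46, 1.22, 1.06 and 1.22 CPM in db/m, under 100 reads. The 2 with the smallest p were Mad2l1, a spindle checkpoint protein (log2 fold change 0.62, SE 0.15, edgeR adjusted p = 0.182), and Ncaph, a condensin subunit (0.75, SE 0.19). Replication and licensing genes were positive in 18 of 29 cases, with a median of 0.05, led by Uhrf1 (0.94, SE 0.26), which recruits the maintenance DNA methyltransferase, and Tk1, thymidine kinase (0.38, SE 0.14). Further cyclins, kinases and phosphatases had a median of 0.03, with 13 of 21 positive, led by Cks1b, a CDK subunit (0.93, SE 0.27), and Wee1, the inhibitory kinase of CDK1 (0.70, SE 0.20). Cks1b was at most 1.88 CPM in db/m, also under 100 reads.

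CDK inhibitors were positive in 5 of 5 cases on vehicle, with a median of 0.46. Cdkn2b, which encodes the CDK4 and CDK6 inhibitor p15, was at 1.62 ± 0.210 CPM in db/db vehicle and 0.835 ± 0.182 CPM in db/m (SD, n = 4 each; log2 fold change 0.97, SE 0.20, edgeR adjusted p = 0.135). Cdkn2c, which encodes p18 of the same family, was at 15.8 ± 0.991 and 10.2 ± 2.07 CPM (log2 fold change 0.63, SE 0.14, edgeR adjusted p = 0.155). None of the 5 passed with edgeR, and DESeq2 called Cdkn1a, Cdkn2b and Cdkn2c higher, with adjusted p of 0.0315, 0.01998 and 0.0111. Cdkn2b, at most 1.04 CPM and under 100 reads in db/m, is a gene in which the floor could favour a higher db/db value. Of the E2F, RB, FOXM1 and DREAM genes, 8 of 17 were positive, with a median of -0.02. E2f1 was at 71.4 ± 13.5 against 99.7 ± 3.73 CPM, with all db/db vehicle libraries below all db/m libraries (log2 fold change -0.49, SE 0.13, edgeR adjusted p = 0.235), and Tfdp2, an E2F dimer partner, at 0.22 (SE 0.08).

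Under puerarin the same 5 lists had medians from -0.05 to 0.07. Named by their p were Wee1 (-0.74, SE 0.22), Cdc27 of the anaphase-promoting complex (0.17, SE 0.09), Cenpa, the centromeric histone (0.58, SE 0.21), Espl1, separase (-0.25, SE 0.13), Pola1 of DNA polymerase alpha (-0.27, SE 0.12), Fen1, the flap endonuclease (-0.21, SE 0.13), Cdkn2c (-0.25, SE 0.16), Cdkn1a (0.25, SE 0.13), and Lin54 and Lin9 of the DREAM complex (0.27, SE 0.13, and 0.24, SE 0.12), each with an edgeR adjusted p of 0.967. For Wee1, puerarin values of 9.04 to 12.7 CPM lay below all db/db vehicle values, 14.8 to 20.4 CPM, and overlapped those of db/m, 9.04 to 15.9 CPM. The 3 genes past the test for title form, named after their values were seen, were Cdkn1a, which encodes the CDK inhibitor p21 (0.86, SE 0.10, edgeR adjusted p = 0.00259), Rfc1, the clamp loader subunit (-0.31, SE 0.07, edgeR adjusted p = 0.0251), and Lin54 (-0.40, SE 0.10, edgeR adjusted p = 0.0427).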

How the data were processed

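The submitters' processing notes name BWA, limma and the mm10 build. The step that assigned reads to transcripts, and its strand setting, are not given in the sources used here. Deposited counts are whole reads per RefSeq transcript, unnormalized, for 22320 transcripts. Of 15 count columns, 4 belong to no listed sample and were left unused. Log2 values deposited by the authors served only to check the column mapping. Counts were summed per symbol to 13734 genes; 13 blank cells were taken as 0 and 50 symbols turned into dates by a spreadsheet were restored by transcript.

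The test was edgeR 4.0.16 (TMM, glmQLFit, glmQLFTest; R 4.3.3) on all 11 libraries with group and title form as terms, 7 residual degrees of freedom, two-sided, with Benjamini-Hochberg adjustment over all genes and a threshold of 0.05. DESeq2 1.42.0 was an alternative. The minimum of 1 read in 3 libraries removed 0 genes. CPM use TMM factors of 0.976 to 1.03; errors are SD over libraries or SE of the fit. Log2 CPM used a prior count of 1. Replicates within each group differed by more than sampling noise. The fits were tested on simulated data.

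The 42 genes and the other lists were chosen with earlier results of these data known. Values in each library were given for Mki67, Cdk1, Top2a, Pcna, Ccnd1, Cdkn1b and, per class, the genes of smallest p in the comparisons or highest CPM. Of the other lists, the 2 of smallest p per list for each comparison within vehicle and within db/db were named. Titles give puerarin and db/m libraries the shared numbers 2 and 3, and db/db vehicle the number 3. The correlation of deviations from the group means was 0.056 for puerarin with db/m under either number. These 2 values are the same by construction, because the deviations of 2 libraries from their mean mirror each other. The correlation was 0.052 for db/db vehicle 3 with db/m 3 and -0.112 for db/db vehicle 3 with puerarin 3. The numbers were not taken to pair samples, though so few values cannot exclude a pairing.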

Additional observations from a re-analysis of the deposited data

Results flagged for a closer look

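In groups of 4 libraries, the highest or lowest value was compared with its nearest neighbour against the range of the group (Dixon's ratio at its 95% critical value). Of 78 such groups, 4 exceeded that value, where chance alone exceeds it in about 1 in 20. Ccnd2 was at 32.8 CPM in db/db vehicle 3, with the next lowest library of that group at 54.9 CPM. Mcm3 was at 11.2 CPM in db/m vehicle 2, with the next at 16.8 CPM. In the same library the S phase level was -0.23, with the next lowest db/m library at -0.04. Bub1b was at 3.63 CPM in db/m vehicle S184, above the next at 3.11 CPM.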

How the results depend on the processing

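Direction was compared across settings only for the genes picked by name, p or CPM as given above. For title form and the difference between forms only those among the 36 were compared. No gene compared in this way changed direction where it passed in either setting. The only call of the main fit that this covered was Pcna for title form. With DESeq2, genes past the test numbered 290 for the genotypes on vehicle (4 of the 36), 15 for puerarin against vehicle, 297 for puerarin against db/m (2 of the 36) and 1885 for title form (5 of the 36). Without the title form term, the genotypes on vehicle had 1 gene and puerarin against db/m 5, and with only the groups compared 2 and 5. Without puerarin 2 and 3, genes past the test were 2, 0 and 81 for the genotypes on vehicle, puerarin against db/m and title form, and without db/m S184 and S185 they were 0, 0 and 341. The title form call of Pcna was lost in both and with library totals in place of TMM, leaving 0 of the 36. Leaving out 1 library at a time gave 0 to 82 genes for the genotypes on vehicle, 0 to 5 for puerarin against vehicle, 0 to 74 for puerarin against db/m (0 to 1 of the 36) and 163 to 1791 for title form (0 to 7 of the 36), with the highest counts without db/db vehicle 1 except for puerarin against vehicle, where it was without S144. Other scalings shifted the median of all genes by at most 0.03. The cause of these changes was not tested. As to depth, the SE on vehicle was 0.45 for Cdk1, with at most 39 reads in a db/m library, and 0.11 for Kif23.

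A replicate block on the shared numbers could use only the 6 group-tag libraries, with 1 residual degree of freedom. Of the 13734 genes in the table it gave 926 for the genotypes on vehicle, 109 for puerarin against vehicle and 565 for puerarin against db/m. The last held 5 of the 36 (Mki67, Cdk1, Ccna2, Prc1 and Anln) and the others 0. Cdk1, Ccna2, Prc1 and Anln are among the 7 genes that the floor favoured, and only Mki67 is among the other 29.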
